A study of Homo sapiens with 88 samples.

Results

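Programmed cell death is set in part by the BCL2 protein family at the mitochondrion and in part by death receptors at the cell surface. Among BCL2 proteins, guardians such as BCL2, BCL2L1 and MCL1 hold the pore-forming effectors BAX and BAK1 in check, and BH3-only proteins such as BCL2L11, BMF, BBC3 and PMAIP1 bind the guardians or activate the effectors. The receptors TNFRSF10B (DR5, a receptor of the ligand TRAIL) and FAS recruit and activate caspase 8 when their ligands bind. Small cell lung cancer (SCLC) is a lung tumour of neuroendocrine character, and BCL2 is a known drug target in it.

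These 10 genes (BCL2, BCL2L1, MCL1, BCL2L11, BMF, BBC3, PMAIP1, BAX, TNFRSF10B and FAS) are described here by every probe set annotated to the gene alone. Of the 10, 9 had such a probe set, with 35 probe sets in all, and 32 of these passed the filter on dim signals, among the 19775 genes with a probe set of their own on the array. The only probe set of BBC3 also named 2 microRNA genes, so BBC3 was not analysed here. Every one of the other 9 genes kept at least 1 probe set, and the probe set with the highest mean stood for its gene among the 15352 genes tested.

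The 88 samples were each 1 Affymetrix HG-U133 Plus 2.0 array of total RNA from 9 established human SCLC lines, grown in RPMI with serum under the vehicle DMSO or an agent named 552A in the sample titles. As treatment the labels' protocol gives DMSO or GSK2879552 at 1 µM. GSK2879552 inhibits LSD1, a histone demethylase. No label equates that compound with 552A, so the arm is called 552A here. COLO668, SHP-77, NCI-H146, NCI-H446, NCI-H510 and NCI-H526 were followed on days 2, 4 and 7, and H69, H2171 and H1417 on day 4 alone. A group of 1 line, arm and day held 2 arrays in 39 of 42 cases, 3 in 2 cases and 4 in 1 case. Whether the arrays of 1 group stand for separate cultures is not labelled, so p-values here measure the spread between these arrays, which may be technical.

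Levels are log2 signals and responses are 552A minus DMSO on that scale, with the standard error (SE) of the fit. A call means an adjusted p below 0.05. A mean is called dim where it is below 6.09, the median over arrays of their lower quartile. In bulk cultures, fewer cells that express a gene and less RNA per cell cannot be told apart. Of the neuroendocrine markers, INSM1 (12.36 to 13.80), CHGA (10.78 to 13.57) and NCAM1 (10.74 to 12.77) were bright in the DMSO arm of all 9 lines. SYP read 7.66 to 8.09, and GRP ran from 5.61, dim, in NCI-H526 to 13.61 in NCI-H510. POU2F3, a marker of tuft cell type SCLC, was dim in 8 lines and at 12.48 in NCI-H526. Of the markers of other cell types, the leukocyte gene PTPRC was dim in all 9 lines. The endothelial gene CDH5 was dim in 8 lines and at 10.91 in NCI-H446, and the fibroblast gene COL1A2 ran from 6.95 to 12.00, in H69. The other markers of such cells were dim in no line: CD3E read 7.49 to 7.93, PECAM1 8.06 to 8.40, VWF 7.61 to 7.97, COL1A1 6.75 to 7.04 and DCN 6.71 to 7.06. Not all of these ranges are of the probe set that stood for the gene in the tests. That probe set read 6.27 for COL1A1 and 7.69 for DCN in SHP-77 under DMSO, outside the ranges given. In 5 arrays of day 7, in SHP-77 and COLO668, ACTB read over 0.8 higher at its 3' than at its 5' probe set, which marks poorer RNA integrity. These and NCI-H446 DMSO day 4 replicate 2, an array with a narrow interquartile range of 2.56, are the 6 arrays in doubt.

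TNFRSF10B was the gene of the group that responded most. It rose in NCI-H510, COLO668, NCI-H146 and NCI-H526, on each of the 3 days, and was not called in the other 5 lines. BMF rose in 3 lines, BCL2 rose in 1 line and fell in 3, and BCL2L1 fell in 2. PMAIP1 rose in 1 line, BAX and FAS each rose in 1 line and fell in another, and MCL1 and BCL2L11 were called in none. Over the 81 pairs of gene and line, 11 were called up (13.6%) and 7 down (8.64%). Over all genes tested, 5.94% of such pairs were called up and 4.38% down. Of the 9 genes, 7 were called in at least 1 line, where 49.3% of all genes were. Without the 6 arrays in doubt, 16 pairs were called up and 10 down, where 8.26% and 6.97% of pairs over all genes were in the same fit. Of the 18 calls, 10 were below 0.5 in size and 3, all of TNFRSF10B, were above 1. The median response of the 9 genes lay between -0.10 and 0.09 in the lines, and that of all genes between -0.02 and 0.02.

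**Figure D1:**
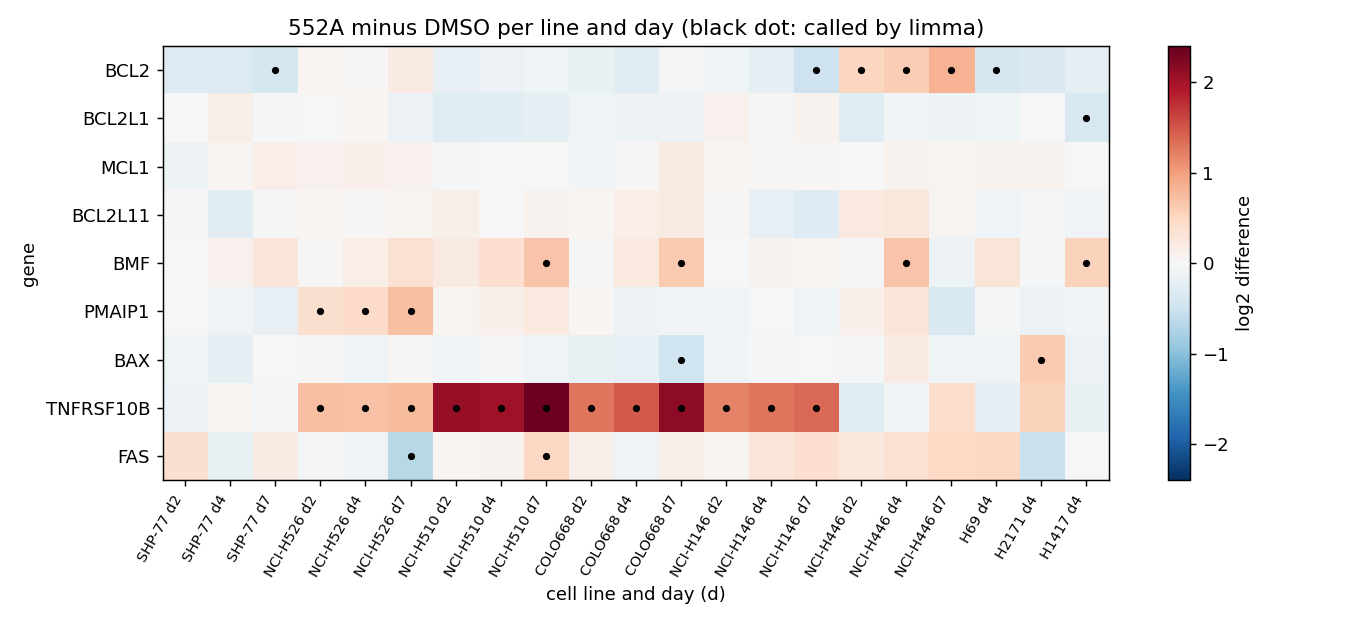
Response of 9 genes (rows) in 21 combinations of line and day (columns), coloured by the log2 difference 552A minus DMSO, with a black dot where limma called it. The row of TNFRSF10B carries 12 dots, all in NCI-H146, COLO668, NCI-H510 and NCI-H526, and the rows of MCL1 and BCL2L11 carry none.

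In NCI-H510, the DMSO arrays of TNFRSF10B read 6.87 and 6.80 on day 2, 6.97 and 7.35 on day 4, and 7.13 and 7.23 on day 7. The 552A arrays read 9.01 and 8.82, then 9.31 and 9.06, then 9.46 and 9.60. Every 552A array stood above every DMSO array. The response was 2.15 ± 0.12 (SE; 6 arrays per arm), a 4.45-fold rise in signal (adjusted p = 1.42e-21), in a line where 15% of all genes were called. In COLO668, DMSO arrays lay between 7.07 and 7.21 and 552A arrays between 8.14 and 9.29. The rise there was 1.63 ± 0.12, or 3.1-fold (adjusted p = 1.41e-16; 21.2% of all genes called in this line). In NCI-H146, DMSO arrays lay between 7.98 and 8.41 and 552A arrays between 9.25 and 9.50. The rise was 1.28 ± 0.12, or 2.43-fold (adjusted p = 2.25e-12; 6.39% of all genes called). In NCI-H526, DMSO arrays lay between 9.17 and 9.43 and 552A arrays between 9.81 and 10.35. The rise was 0.73 ± 0.12, or 1.65-fold (adjusted p = 1.47e-06; 21.1% of all genes called). The arms of TNFRSF10B did not overlap in any of these 4 lines. Of all genes tested, 2.68% were called up in at least 4 of 9 lines.

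In SHP-77, NCI-H446, H69 and H1417 the receptor read dim in the DMSO arm, and its responses were -0.04 ± 0.11, 0.02 ± 0.12, -0.21 ± 0.21 and -0.17 ± 0.21. Whether a change lay hidden in these dim signals was not tested. In H2171 the DMSO arrays read 6.13 and 6.77 and the 552A arrays 6.93 and 7.09. These do not overlap, nor do the arms of 48.4% of all genes in this line. The TNFRSF10B response of 0.56 ± 0.21 was not called (adjusted p = 0.213).

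**Figure D2:**
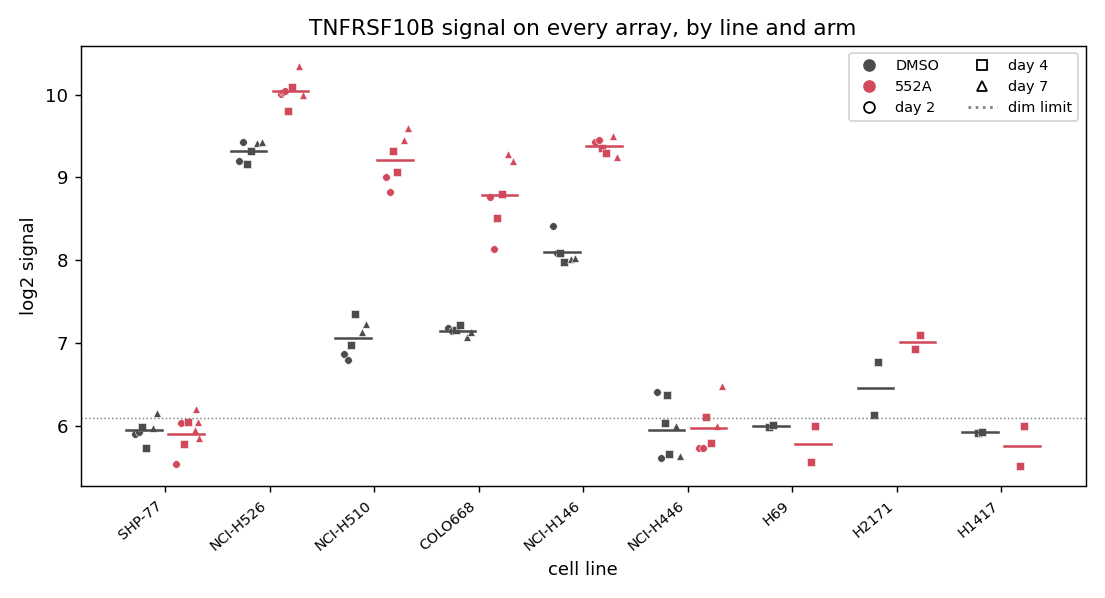
Log2 signal of TNFRSF10B on each of the 88 arrays, by line, with arms in colour, days as symbols, group means as bars and the dim limit of 6.09 as a dotted line. The 552A arrays lie above all DMSO arrays in NCI-H146, COLO668, NCI-H510 and NCI-H526, and also in H2171, which has 2 arrays per arm. The other 4 lines sit near the dim limit in both arms.

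By day, the response of TNFRSF10B was 2.08, 2.03 and 2.34 in NCI-H510 on days 2, 4 and 7, and 1.29, 1.47 and 2.14 in COLO668. In NCI-H146 it was 1.19, 1.29 and 1.35, and in NCI-H526 0.71, 0.71 and 0.75. The rise was thus called by day 2 in each of the 4 lines. The gain from day 2 to day 7 in COLO668 was 0.85 ± 0.29 and was not called (adjusted p = 0.0773). In NCI-H526 the calls of single days were lost on leaving out 1 array of that day (DMSO replicate 1 on any day, DMSO replicate 2 on day 4 or 7, 552A replicate 2 on day 4 or 552A replicate 1 on day 7; adjusted p up to 0.347). The response over the 3 days kept its call under each left-out array.

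The size of this rise depended on the probe set. Of its 4 probe sets 3 passed the filter, and the other 2 that passed are of the kind marked as open to cross-hybridisation. They rose by 0.74 each in NCI-H510, by 0.36 to 0.40 in NCI-H526, by 0.22 to 0.31 in COLO668 and by 0.34 to 0.37 in NCI-H146. Their sign was that of the main probe set in all 4 lines, and both were called in NCI-H510 and NCI-H526 and 1 of them in COLO668 and NCI-H146. With the mean of all probe sets, the response was 1.21, 0.72, 0.66 and 0.50 in NCI-H510, COLO668, NCI-H146 and NCI-H526, and it was called in each. PTPRC, dim under DMSO, also rose in NCI-H146, by 1.06 ± 0.08 (adjusted p = 2.31e-16), while the leukocyte marker CD3E was not called. NCI-H146 is an established SCLC line. Whether any leukocytes were in its cultures, or had a part in the TNFRSF10B result, was not tested.

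FAS, the receptor of FAS ligand, was called up in 1 line and down in another. In NCI-H446 its DMSO arrays lay between 7.18 and 7.51 and its 552A arrays between 7.58 and 8.03, without overlap. The response there was 0.37 ± 0.09 (adjusted p = 0.00404; 5.59% of all genes called in this line). Of the 3 other probe sets, 2 were called up as well, both dim under DMSO and of the kind open to cross-hybridisation. Their highest DMSO line means, 7.15 and 7.06 in NCI-H146, were below the filter cutoff of 7.41. They may thus have passed the filter through the 552A arm. The remaining probe set gave 0.29 and was not called (adjusted p = 0.145). In NCI-H526 the response of FAS was -0.26 ± 0.09 (adjusted p = 0.0270). This fall was largest on day 7, where DMSO arrays read 7.69 and 7.53 and 552A arrays 7.06 and 6.82. The response of that day was -0.67, a call lost without its 552A replicate 2 (-0.55), while days 2 and 4 gave -0.02 and -0.09. The change in the response from day 2 to day 7 was -0.65 ± 0.21 and was not called (adjusted p = 0.284). The call over the 3 days was lost on leaving out 1 of 6 arrays (DMSO day 2 replicate 1, day 4 replicate 2 or day 7 replicate 1; 552A day 4 replicate 1 or 2 or day 7 replicate 2; adjusted p up to 0.109). It was also lost with the mean of all probe sets (-0.19). In NCI-H510 FAS was called up on day 7 only among the 3 days tested, by 0.50 ± 0.16, a call lost without DMSO replicate 2 or either 552A array of that day (adjusted p up to 0.544). In H69 and H2171 the responses were 0.50 ± 0.16 and -0.53 ± 0.16. Each had arms that do not overlap, as did 52% and 48.4% of all genes in these lines. Neither response was called with all arrays (adjusted p = 0.0583 and 0.0678). Without the 6 arrays in doubt both were called (adjusted p = 0.0290 and 0.0287). With the mean of all probe sets they shrank to 0.10 and -0.05 (adjusted p = 0.985 and 0.986). In NCI-H146, where TNFRSF10B rose, the response of FAS was 0.26 and was not called (adjusted p = 0.0878). It was called there without the 6 arrays (adjusted p = 0.0427) and with the mean of all probe sets (0.30, adjusted p = 0.00872). It was also called with the line's own arrays alone and with the ACTB covariate. Another FAS probe set, which that mean includes, was called up at 0.50 (adjusted p = 0.00217). Its DMSO mean there was 7.10, below the filter cutoff of 7.41. It may thus have passed the filter through the 552A arm, and so is no separate check of the rise.

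Of the guardians, BCL2 went both ways. In NCI-H446, one of the 2 lines with the lowest BCL2 signal under DMSO, DMSO arrays lay between 6.66 and 7.23 and 552A arrays between 7.29 and 7.70. The arms did not overlap, and the rise was 0.64 ± 0.06 (adjusted p = 2.58e-11), with 0.51, 0.59 and 0.83 on days 2, 4 and 7. The day 2 call was lost without replicate 2 of either arm (adjusted p up to 0.863) and with the mean of all probe sets (0.13, adjusted p = 0.919). The day 2 and day 4 calls were both lost with the line's own arrays alone. In H69 the arrays read 9.95 and 9.90 under DMSO and 9.55 and 9.48 under 552A, a fall to be read beside 4.18% of all genes called in this line. The response was -0.41 ± 0.11 (adjusted p = 0.0216) and was not called with any of the 4 arrays left out (adjusted p up to 0.211). In SHP-77 DMSO arrays lay between 10.00 and 10.39 and 552A arrays between 9.66 and 10.06. These ranges overlap over the 3 days, and the response was -0.35 ± 0.06 (adjusted p = 6.38e-05; 8.14% of all genes called). In NCI-H146 the response was -0.27 ± 0.07 (adjusted p = 0.00361), and it was largest on day 7, where DMSO arrays read 9.12 and 9.16 and 552A arrays 8.66 and 8.61, a call lost without replicate 2 of either arm (adjusted p = 0.0659 and 0.0791).

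BCL2 was lower under 552A in 7 of 9 lines, of which 3 were called. Of all genes tested, 8.36% were called up in 1 line and down in another. The 2 other BCL2 probe sets that passed the filter were not called in any of these 4 lines. In NCI-H446 they gave -0.02 and 0.09, and the mean of all probe sets gave 0.24, still called. In SHP-77 that mean gave -0.17, also called, and in NCI-H146 and H69 it gave -0.12 and -0.22, which were not called (adjusted p = 0.105 and 0.0936). In COLO668 and NCI-H510 BCL2 was not called (-0.16 and -0.15, adjusted p = 0.0697 and 0.124), but the mean of all probe sets was called down in both (-0.19 and -0.14, adjusted p = 0.000851 and 0.0193). Of the 2 other probe sets, 1 was called down in COLO668 (-0.32, adjusted p = 0.00602) and the other in NCI-H510 (-0.18, adjusted p = 0.00739).

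BCL2L1, which encodes BCL-XL, fell in NCI-H510 and H1417. In NCI-H510 DMSO arrays lay between 10.75 and 10.92 and 552A arrays between 10.54 and 10.68. They did not overlap, and the response was -0.26 ± 0.06 (adjusted p = 0.000538). In H1417, where 9.24% of all genes were called, both DMSO arrays read 11.49 and the 552A arrays 11.01 and 11.20, a response of -0.38 ± 0.10 (adjusted p = 0.00667). That call was lost without DMSO replicate 2 or 552A replicate 1 (adjusted p = 0.0511 and 0.188) and in a fit of the line's own arrays alone. With the mean of its probe sets BCL2L1 was called in neither line (-0.16 and -0.22, adjusted p = 0.175 and 0.374). In COLO668 and NCI-H446 it was not called (-0.12 and -0.15) but gained a call under some alternatives. These were the mean of probe sets (-0.20, adjusted p = 0.0478) and quantile normalization (-0.14, 0.0261) in COLO668, and quantile normalization (-0.21, 0.00235) and leaving out the 6 arrays (-0.20, 0.00841) in NCI-H446.

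MCL1, a guardian whose protein turns over fast, had the smallest range of line responses, from -0.01 to 0.11, each with an SE of 0.06 to 0.11. No line and no single day was called with all arrays. A fit of the NCI-H526 arrays alone called MCL1 up there (0.11, adjusted p = 0.0449). BCL2L11, which encodes BIM, ranged from -0.16 ± 0.09 in NCI-H146 to 0.19 ± 0.09 in NCI-H446 and was not called in any line or day, although another of its probe sets was called up in COLO668 (0.33, adjusted p = 0.0175). Without the 6 arrays in doubt, limma called MCL1 up in NCI-H526 (0.11, adjusted p = 0.0240), and BCL2L11 up in COLO668 (0.24, adjusted p = 0.0013) and down in NCI-H146 (-0.16, adjusted p = 0.0271).

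BMF, a BH3-only protein tied to the cytoskeleton, was higher under 552A in 8 of 9 lines, of which 3 were called (5.93% of all genes were called up in at least 3 lines). In NCI-H510 DMSO arrays lay between 9.48 and 9.86 and 552A arrays between 10.00 and 10.27, without overlap. The response was 0.43 ± 0.08 (adjusted p = 3.37e-05). In COLO668 DMSO arrays lay between 8.92 and 9.38 and 552A arrays between 9.10 and 9.92, which overlap. The response was 0.28 ± 0.08 (adjusted p = 0.00855) and was highest on day 7, at 0.63, after -0.03 and 0.23 on days 2 and 4. In H1417 the arrays read 8.94 and 9.11 under DMSO and 9.48 and 9.68 under 552A, a response of 0.56 ± 0.14 (adjusted p = 0.00402). That call was lost without DMSO replicate 1 or 552A replicate 2 (adjusted p = 0.0884 and 0.114) and with the line's own arrays alone. In NCI-H446 on day 4, 552A arrays read 9.76 and 9.98 and the 3 DMSO arrays 9.76, 8.90 and 8.88. The response of that day was 0.69 and was called, but not with the line's own arrays alone (adjusted p = 0.305). The response over the 3 days, 0.18, was not, but it was called at 0.28 (adjusted p = 0.000381) without the DMSO array at 9.76. That array is not among the 6 in doubt. With those 6 left out, the response over the 3 days was not called. Of 13 arrays left out singly, 12 gave no call, with a response as low as 0.13. In NCI-H526 the response of 0.19 was not called with all arrays. It was called with the line's own arrays alone (adjusted p = 0.00109) and without the 6 arrays in doubt. BMF has 1 probe set only on this array, so no other checks it.

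BMF also changed with time in culture. In SHP-77, DMSO arrays read 8.92 and 9.12 on day 2 and 9.73 and 9.49 on day 7, a rise of 0.59 without 552A. Of 54 pairs of gene and line, 2 differed between DMSO days 7 and 2, BMF and BAX (-0.41), both in SHP-77, where 8.25% of all genes did (2.44% over the 6 lines). Neither held without the 6 arrays in doubt or with the ACTB signal as a covariate. Of 54 tests of a change in the response from day 2 to day 7, 1 was called, BMF in COLO668 (0.66 ± 0.20, adjusted p = 0.0378; background 0.943% over the 6 lines). That call was lost without any 1 of the 4 552A arrays of those days, or without DMSO replicate 2 of either day (adjusted p up to 0.197).

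PMAIP1 (NOXA), a BH3-only protein that binds MCL1, rose in NCI-H526, the line with its lowest DMSO level. DMSO arrays lay between 11.02 and 11.23 and 552A arrays between 11.30 and 11.91, without overlap. The response was 0.53 ± 0.07, a 1.44-fold rise (adjusted p = 4.68e-08), with 0.39, 0.47 and 0.72 on days 2, 4 and 7. The day 2 and day 4 calls were lost on leaving out some single arrays (DMSO replicate 1 or 2 or 552A replicate 1 of either day, or 552A replicate 2 of day 2; adjusted p up to 0.373). Its other probe set rose by 0.60 and was called. In the other 8 lines the response of PMAIP1 lay between -0.13 and 0.14 with no call.

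Promoter bases are given for BMF and PMAIP1 because, of the 10 genes listed at the start, these are the 2 BH3-only genes called up. They are the 250 bases upstream of the first start listed by RefSeq (GRCh38.p14), 5′ to 3′ on the strand of the gene, at chr15:40108880-40109129 (minus strand) for BMF and chr18:59899746-59899995 (plus strand) for PMAIP1. Capitals mark GGGCGG, the GC box, on either strand.
BMF: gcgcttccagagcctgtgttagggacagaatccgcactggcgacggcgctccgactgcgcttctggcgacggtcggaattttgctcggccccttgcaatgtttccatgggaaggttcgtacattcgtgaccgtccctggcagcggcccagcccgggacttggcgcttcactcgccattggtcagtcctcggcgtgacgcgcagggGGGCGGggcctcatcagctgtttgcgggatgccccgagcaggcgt
PMAIP1: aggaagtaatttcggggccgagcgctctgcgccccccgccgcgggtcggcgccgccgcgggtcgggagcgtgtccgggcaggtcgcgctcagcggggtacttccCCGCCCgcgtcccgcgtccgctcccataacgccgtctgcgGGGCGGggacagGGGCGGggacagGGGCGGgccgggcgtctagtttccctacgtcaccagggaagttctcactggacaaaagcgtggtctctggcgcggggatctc
PMAIP1 held 4 matches, of which the 3 nearest begin 106, 94 and 82 bases before the start, and BMF held 1, at 45. GGGCGG was in 42.6% of the 35116 RefSeq windows of the same length. CACCTG, the E-box read by ZEB and SNAI repressors, had no match in either window and was in 17.5% of all windows. AATC, the core of the GFI1 site, had 1 match in BMF and none in PMAIP1 and was in 64.8% of all windows. Both strands were searched for each, no match overlapped another, and a match is a description of the letters only. RefSeq lists a second start of BMF, whose window at chr15:40106967-40107216 held CACCTG at 236 and 118 bases before that start and neither of the other motifs.

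BAX, the effector measured here, rose in H2171 and fell in COLO668. In H2171, where 2.01% of all genes were called, DMSO arrays read 10.36 and 10.27 and 552A arrays 11.07 and 10.80. The arms did not overlap, as for 48.4% of all genes there, and the rise was 0.62 ± 0.13 (adjusted p = 0.00261). It was not called without DMSO replicate 2 or without 552A replicate 1 (adjusted p = 0.0750 and 0.206), nor with the line's own arrays alone. Its other probe set gave 0.65 and was not called. In COLO668 DMSO arrays lay between 10.74 and 11.05 and 552A arrays between 10.06 and 10.88, a response of -0.28 ± 0.08 (adjusted p = 0.00466). The lowest of these, 10.06, was the day 7 array with an ACTB 3' minus 5' signal of 1.34, and without it the response was -0.21 (adjusted p = 0.0560). In SHP-77 on day 7, BAX read 10.44, 10.56 and 10.38 on the 3 arrays with that signal above 0.8 and 10.79, 10.78 and 10.79 on the other 3. In COLO668 under DMSO on day 7, it read 10.76 on the array with that signal at 1.11 and 10.74 on the array with it at 0.30. Over the days, the COLO668 fall was -0.24 (adjusted p = 0.00428) with the ACTB covariate and -0.20 without the 6 arrays in doubt, and it kept its call in both. Its call on day 7 alone was lost without those 6 arrays (-0.24) and without 552A replicate 2 of that day (-0.25).

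**Figure D3:**
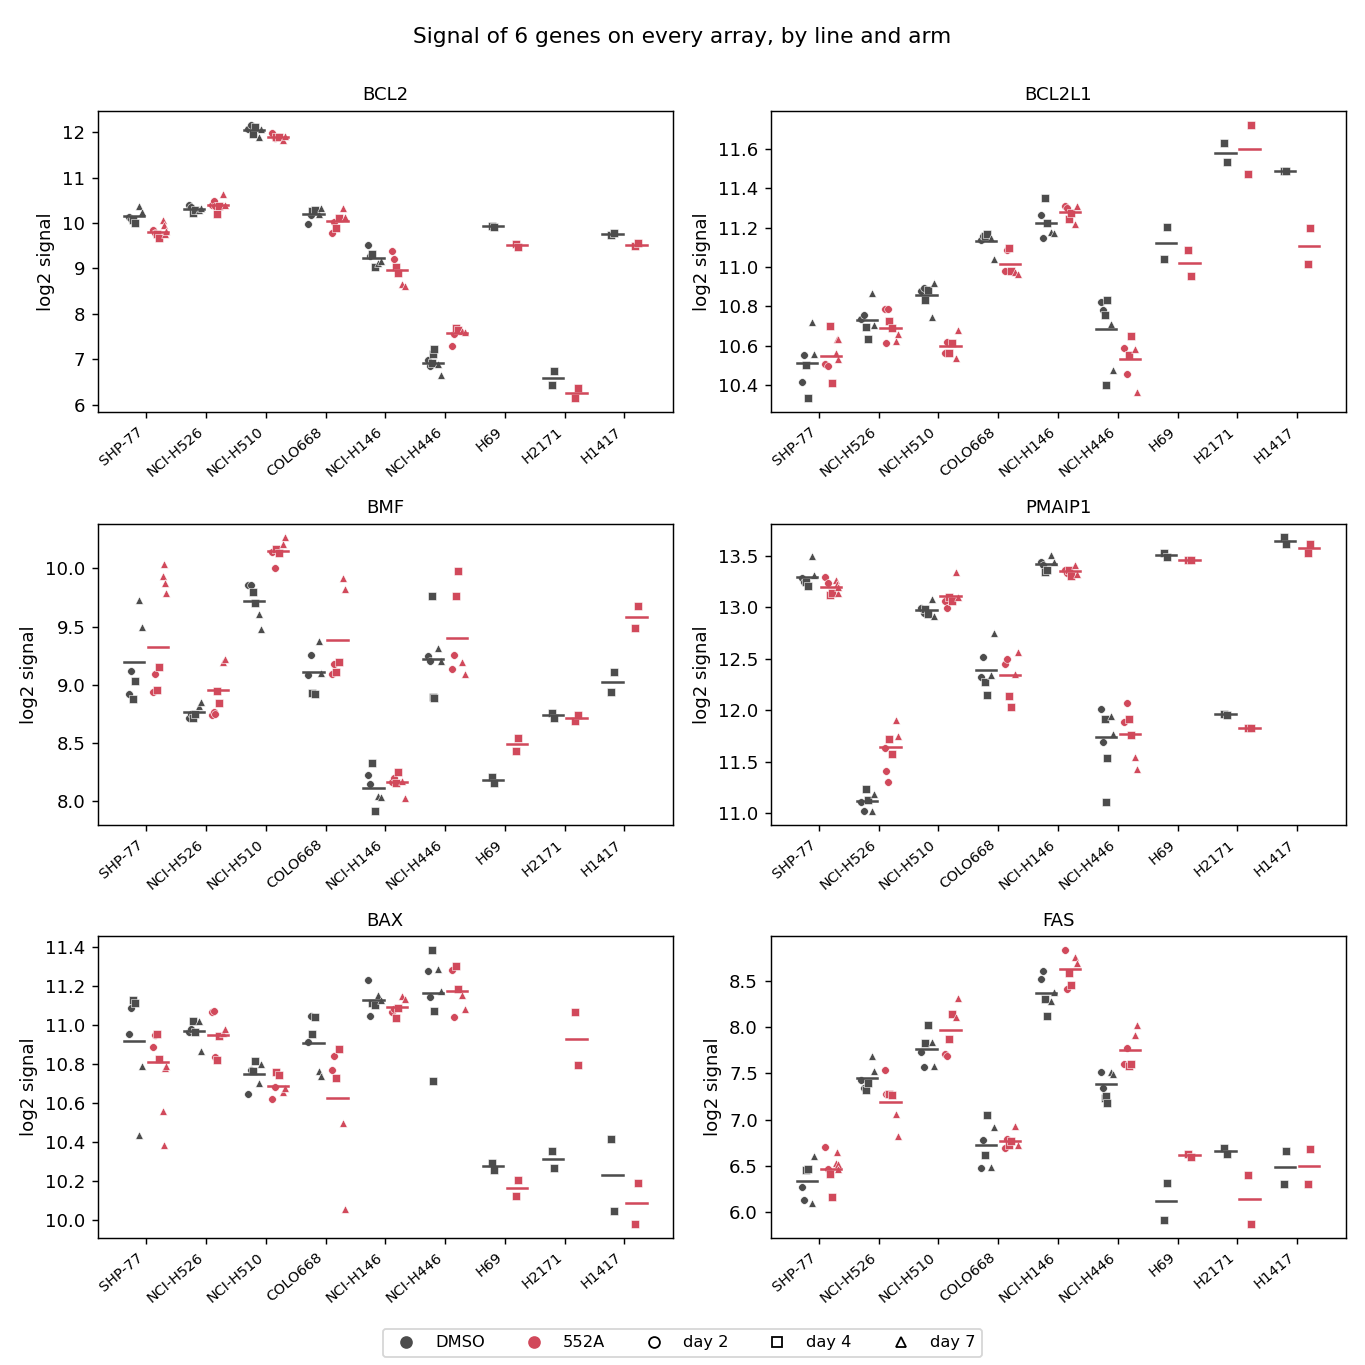
Log2 signal of BCL2, BCL2L1, BMF, PMAIP1, BAX and FAS on every array, by line, with arms in colour, days as symbols and group means as bars; each panel has its own axis. The arms separate for BCL2 and FAS in NCI-H446, for BCL2L1 and BMF in NCI-H510 and for PMAIP1 in NCI-H526.

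By line, NCI-H526, NCI-H510 and COLO668 each had 3 of the 9 genes called, 2 up and 1 down. NCI-H446 had 2 called, both up, and NCI-H146 and H1417 had 1 up and 1 down each. SHP-77 and H69 had 1 called down, and H2171 had 1 called up. The gene that rose most was TNFRSF10B in the first 3 of these and in NCI-H146, BCL2 in NCI-H446, BMF in H1417 and BAX in H2171. Arms did not overlap in 26 of 81 pairs, where 20.3% of pairs over all genes did not, and 17 of the 26 lay in the 3 lines with 2 arrays per arm. In those lines, arms did not overlap for 52% (H69), 48.4% (H2171) and 45.7% (H1417) of all genes. Over the 189 combinations of gene, line and day, 24 were called up and 6 down, where 3.46% and 2.03% of all genes were. Of the 24 rises, 12 were of TNFRSF10B, 4 of BMF, 3 each of BCL2 and PMAIP1, and 1 each of BAX and FAS.

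The responses differed between lines for several of these genes. An F test of equal responses in the 6 time course lines called 5 of the 9, where 38.1% of all genes were called. These were TNFRSF10B (adjusted p = 7.34e-18), BCL2 (3.17e-13), PMAIP1 (4.91e-06), FAS (0.00101) and BCL2L1 (0.00708). BMF missed the threshold at 0.0638, and MCL1 gave 0.915. Of the 15 pairs of lines, 13 differed for TNFRSF10B, 8 for BCL2, 5 for PMAIP1, 4 for FAS, 2 for BCL2L1 and 1 for BMF (12.4% over all genes). Over 9 lines on day 4, 5 genes were called as well (16.6% of all genes), namely TNFRSF10B, BCL2, FAS, BAX and BMF.

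With the line as the replicate, no gene of the 9 was called in the shared day 4 response (limma; 0.0521% of all genes, which is 8, were). At an unadjusted p under 0.05 there were 2, BMF and TNFRSF10B, and a fit at array level called 3. BMF averaged 0.28 ± 0.07 (n = 9 lines; adjusted p = 0.146) with 8 lines positive. TNFRSF10B averaged 0.63 ± 0.23 (adjusted p = 0.297) with 6 lines positive. BCL2 averaged -0.15 ± 0.09 (adjusted p = 0.545), with NCI-H446 and NCI-H526 above 0 and the other 7 lines below.

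The DMSO level differed between lines for all 9 genes on day 4, as for 96.7% of all genes. The line means are a description of level, and probe sets differ in brightness, so no gene's level is set against another's. TNFRSF10B was highest in NCI-H526 (9.33 ± 0.12, SD over 6 DMSO arrays), then in NCI-H146 (8.10 ± 0.16), COLO668 (7.15 ± 0.05), NCI-H510 (7.06 ± 0.22) and H2171 (6.45 ± 0.45, 2 arrays). COLO668 and NCI-H510 overlapped. H69, NCI-H446, SHP-77 and H1417 followed at 5.99, 5.96, 5.94 and 5.92, all dim and overlapping their neighbours. The 4 lines with a called rise were the 4 with the highest DMSO level, and the line with the highest level had the smallest of the 4 rises.

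BCL2 had the widest range of line means of the 9 genes, 5.46, and 96.4% of all genes had a smaller range (median 1.44). It was highest in NCI-H510 at 12.04 ± 0.10, apart from the next line by 1.73. NCI-H526, COLO668 and SHP-77 followed at 10.31, 10.21 and 10.16 and overlapped, then H69 at 9.92, H1417 at 9.76 and NCI-H146 at 9.24. NCI-H446 (6.95 ± 0.19) and H2171 (6.59 ± 0.20) were lowest and overlapped. In these 2 lines the responses of BCL2 were 0.64 and -0.34.

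Among BH3-only genes, BCL2L11 ran from 11.44 ± 0.09 in COLO668 to 8.86 ± 0.26 in NCI-H446, and PMAIP1 from 13.65 ± 0.05 in H1417 to 11.11 ± 0.09 in NCI-H526. BMF ran from 9.72 ± 0.15 in NCI-H510 to 8.12 ± 0.15 in NCI-H146. Among its 8 pairs of neighbours in that order, 6 overlapped, so few lines stand apart in BMF. FAS was highest in NCI-H146 (8.37 ± 0.18), then NCI-H510 (7.76 ± 0.17), NCI-H526 (7.45 ± 0.14) and NCI-H446 (7.36 ± 0.14), and lowest in H69 (6.12 ± 0.28). The ranges of MCL1 (1.17), BCL2L1 (1.07) and BAX (0.92) were below the median over all genes. MCL1 was highest in SHP-77 at 13.16 ± 0.28 and lowest in NCI-H510, the line with the highest BCL2 signal, at 11.99 ± 0.16.

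**Figure D4:**
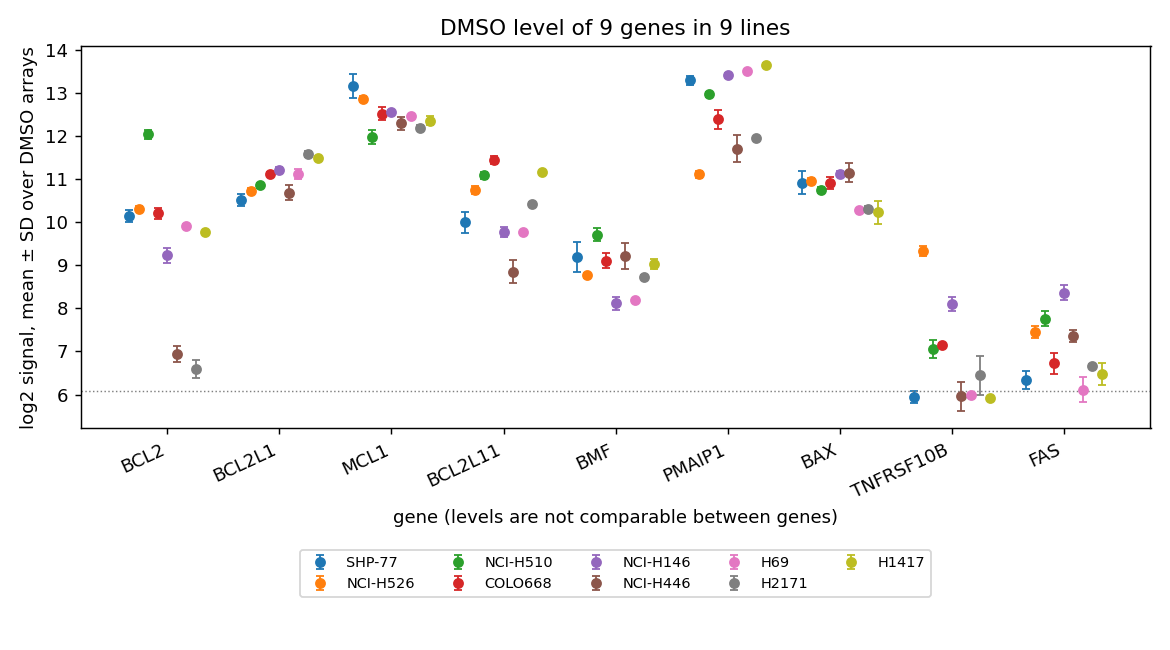
DMSO level of 9 genes in 9 lines as the mean log2 signal with its SD over 6 or 7 DMSO arrays of days 2, 4 and 7, or over 2 of day 4 for H69, H2171 and H1417; the dotted line marks the dim limit of 6.09. BCL2 spans 6.59 to 12.04 and TNFRSF10B 5.92 to 9.33, while BAX stays within 0.92.

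Of 63 listed genes of the same pathways, 50 were tested, which gave 450 pairs of gene and line. Of these, 34 were called up (7.56%) and 24 down (5.33%), and 28 genes (56%) were called in at least 1 line. Over all genes these shares were 5.94%, 4.38% and 49.3%, and the counts by role below are read against them. Without the 6 arrays in doubt, 44 pairs were called up and 37 down, beside 8.26% and 6.97% over all genes. Among 6 further BH3-only genes, 10 of 54 pairs were called up and 2 down. HRK rose by 0.68 ± 0.17 in H1417, and BIK rose by 0.43 ± 0.10 in NCI-H146 and fell by 0.31 in COLO668. BIK, a BH3-only protein of the endoplasmic reticulum, was called up in 4 lines. BID, which caspase 8 cleaves to link both arms of the pathway, fell by 0.24 in NCI-H526 but was called up in 2 other lines.

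Of 7 further death receptors and decoys, 3 of 63 pairs were called up and 7 down. TNFRSF21 (DR6) rose by 0.67 ± 0.08 in COLO668 (9.67 to 10.34, adjusted p = 2.76e-09). The decoy receptor TNFRSF10D rose by 0.56 ± 0.12 in NCI-H510, beside the rise of TNFRSF10B there, and was called down in 1 other line. TNFRSF10A (DR4), the other signalling receptor of TRAIL, fell by 0.44 ± 0.07 in NCI-H526 (adjusted p = 4.48e-06), where TNFRSF10B rose, and was called up in no line. TNFRSF25 fell by 0.44 in NCI-H446. TNF, a death ligand, fell by 0.85 ± 0.18 in H69, the 1 call among 18 pairs of 2 ligands.

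In the complex that forms at the receptors, 4 of 54 pairs were called up and 2 down. CASP8 rose by 0.32 ± 0.08 in NCI-H526. CFLAR, which blocks caspase 8, rose by 0.26 in COLO668 and fell by 0.32 in SHP-77. The adaptor TRADD fell by 0.15 in NCI-H526 and was called up in 1 other line. Of 7 apoptosome and caspase genes, 6 of 63 pairs were called up and 2 down. APAF1, the scaffold of the apoptosome, was called up in 5 lines, by 0.57 ± 0.14 in H69 from a dim DMSO arm, and CASP6 rose by 0.29 in COLO668 and fell by 0.23 in NCI-H510. Among 2 guardians outside the first list, BCL2L2 fell by 0.32 in NCI-H526 and BCL2L10 by 0.43 in H69, with 3 of 18 pairs called down and none up. Of 36 pairs of other BCL2 relatives, 1 was called up and 4 down. BCL2L12 fell by 0.33 in NCI-H526 and rose by 0.20 in COLO668, where BAK1 fell by 0.18. Of 5 inhibitor of apoptosis genes, 1 of 45 pairs was called, BIRC2 in NCI-H510 (0.18). Among 7 regulators known to act on transcription of these genes, 8 of 63 pairs were called up and 3 down. ATF3 rose by 0.56 ± 0.18 in NCI-H510, TP73 by 0.50 ± 0.11 in H1417, and DDIT3 fell by 0.30 in NCI-H526. TP73 was called up in 3 lines in all and down in 1. Of 36 pairs of genes that act on MCL1 turnover, 1 was called up and none down.

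The genes whose responses most resembled those of TNFRSF10B over the 21 combinations of line and day were NMU (Pearson r = 0.911), CXCL6 (0.865) and GBP3 (0.858). For BCL2 they were STK38L (0.858), ELN (0.857) and CTHRC1 (0.855), and for FAS FAM3B (0.797), ACOX3 (0.795) and BMAL1 (0.794). These values describe 21 points that share lines and DMSO arrays, and were picked as the highest among all genes tested.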

How the data were processed

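The values deposited by the authors are log2 signals, 1 per probe set and array. How they were summarised, corrected and scaled is not given in the sources used here. Array medians lay between 7.36 and 7.46, so the values were used as deposited. With no read counts on arrays, precision rests on the number of arrays. Of 54675 probe sets, 41091 had 1 gene symbol, 1801 several and 11721 no symbol, and 62 were controls. Probe sets were kept if at least 1 group mean was above 7.41, the median of all values. A set with the suffix _x_at was used only for genes that had no other.

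limma 3.58.1 in R 4.3.3 (lmFit, eBayes, two-sided, Benjamini-Hochberg over all genes tested) fitted a mean for each of 42 groups, with 46 residual degrees of freedom. A line's response is the mean over its days. The shared response used 1 ratio per line. Scripts were tested on simulated data. The R package data.table (version 1.17.8) read the files, and figures were drawn with matplotlib 3.10.9 under Python 3.11.15 with numpy 2.4.6 and pandas 2.3.3. Promoter windows came from RefSeq (8 of 10 genes matched).

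The genes, the related list and the tests were chosen with earlier results of these data known. All 10 genes were named, of each related role up to 2 called responses per direction, and for 3 genes the 3 most alike. The counts of lines for BIK, BID, TNFRSF10D, TRADD, TP73 and APAF1 were chosen after their values were seen. Alternatives were quantile normalization, other filters, the mean of all probe sets, a line's own arrays, an intensity trend, a fit at array level, the replicate number as a block, each array or 6 arrays left out, and the ACTB signal as a covariate.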

Additional observations from a re-analysis of the deposited data

Results flagged for a closer look

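On day 4, the BCL2 response of NCI-H446, 0.59, stood apart from those of the other 8 lines, which ran down to -0.41. The BAX response of H2171, 0.62, likewise stood apart from the other 8. Of 27 groups of values checked for such a gap, 2 had one, and chance gives about 1 in 20.

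Responses differed between the 6 time course lines for BCL2 (adjusted p = 3.17e-13), BCL2L1 (0.00708), PMAIP1 (4.91e-06), TNFRSF10B (7.34e-18) and FAS (0.00101), by limma's F test over all genes. Between the 9 lines on day 4 they differed for BCL2 (adjusted p = 1.23e-05), BMF (0.0417), BAX (0.00773), TNFRSF10B (1.57e-09) and FAS (0.00717).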

How the results depend on the processing

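No called response of the 9 genes reversed under the alternatives run. The number of DMSO time calls went from 2 to 1 with no filter on dim probe sets, to 1 without the 6 arrays in doubt and to 0 with the ACTB covariate, and ran from 0 to 3 with single arrays left out. Calls of a change over days went from 1 to 2 without the 6 arrays, and from 0 to 2 with single arrays left out (0 without COLO668 DMSO day 2 replicate 2, 2 without NCI-H446 DMSO day 4 replicate 2). Without the 6 arrays, line and day calls down went from 6 to 11 (3.22% of all genes in that fit) and related gene calls down from 24 to 37. The fit at array level called 3 genes in the shared response, BCL2, BMF and TNFRSF10B, where 0 were called with the line as the replicate. Equality over 9 lines on day 4 called 3 to 6 genes with single arrays left out, and 3 without H2171 DMSO day 4 replicate 2, 552A replicate 1 or 552A replicate 2. Most groups held 2 arrays and TNFRSF10B was dim under DMSO in 4 lines, and whether either hid a change was not tested.

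Whether replicate numbers pair the samples was not settled, and the main fit did not use them. In 10 of 21 combinations of line and day, same-numbered arrays deviated together with r above 0.1. Values of r ran from -0.40 to 0.49 (median 0.08). With the replicate block, 12 pairs of gene and line were called up and 9 down, and calls of a change over days went from 1 to 2.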
